A study of Mus musculus with 11 samples.

Results

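Desmosomes are the junctions that hold epithelial cells together by anchoring their keratin filaments at the membrane, and 5 of their genes were followed across 11 arrays of mouse embryonic fibroblasts (MEFs) taken early in reprogramming to pluripotency. The genes were Dsg3, Dsc2, Pkp3, Dsp and Perp, chosen by name from a list of desmosome and gap junction genes, and they are 5 of the 19938 genes measured. Earlier results of these data were known when they were chosen, so the shares of all genes set beside them below are a description. The cells came from male F1 embryos at 13.5 days post coitum, of a mother homozygous for ROSA-rtTA (C57Bl6 backcross) and a father homozygous for the Nanog-GFP BAC transgene (C57Bl6/129SV intercross), so all of them carried the doxycycline-dependent transactivator and the pluripotency reporter. Each MEF sample received 1 PB-TAC piggyBac transposon and a transposase plasmid, and doxycycline at 1 ug/mL then switched on the transgene together with the fluorescent protein mCherry. There were 8 polycistronic cassettes of reprogramming factors (OKMS and OK+9MS, OSKM, MKOS, OKN-HAMS, WTSI, EB-C5 and STEMCCA), 2 constructs with Klf4 alone (Klf4S and Klf4L, the latter titled Klf4+9) and 1 with lacZ. Cells with a cassette or Klf4 were sorted for mCherry on day 6, and the lacZ cells were harvested unsorted on day 2. Day, sort and transgene therefore cannot be told apart wherever lacZ is the reference. A construct has 1 array, so the spread within a group is the spread between different constructs, and p-values measure that spread alone. The labels do not say whether separate embryos or cultures were used. They name the Klf4 form only for OKMS and OK+9MS and for Klf4S and Klf4L, and the other 6 cassettes were not grouped by it.

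Desmosomal cadherins, the desmogleins (Dsg) and desmocollins (Dsc), span the membrane and bind those of the neighbouring cell. Armadillo proteins, plakoglobin (Jup) and the plakophilins (Pkp), gather the cadherin tails into a plaque, and desmoplakin (Dsp) ties that plaque to keratin filaments. Perp is a tetraspan membrane protein of desmosomes and a known target of p53 and p63. Gap junctions are channels of connexins that pass ions and small molecules between cells, with Gja1 as the main connexin of fibroblasts. Fibroblasts have few desmosomes, and gain of epithelial junctions is an early step of reprogramming.

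All values are log2 expression values, on which a difference of 1 is a 2-fold change, and they are compared between arrays within a gene and not between genes. The median over all probe sets lay between 7.19 and 7.27 on the 11 arrays. All 12 listed fibroblast markers were measured, with list means of 10.65 to 11.61 in the cassettes, 11.92 and 11.93 in Klf4 alone and 10.75 in lacZ, and the type I collagen gene Col1a1 read at least 11.91 on every array. The mean of 8 markers of simple epithelium, among them Cdh1 and Epcam, ran from 7.55 (WTSI) to 10.91 (OSKM) in the cassettes, against 7.95 and 8.11 in Klf4 alone and 7.56 in lacZ. Means of 8 keratinocyte markers were 6.56 to 7.68 in the cassettes, 7.27 and 7.38 in Klf4 alone and 6.68 in lacZ. Lists for cardiac muscle (6.74 to 7.31 in the cassettes, 6.79 in lacZ), macrophages (6.26 to 6.58, 6.31 in lacZ) and endothelium (6.72 to 6.94, 6.53 in lacZ) varied less. Of the macrophage markers, Ptprc and Adgre1 read at most 5.79 and 5.45 on any array. Cd68, on the same list, varied more, with a top reading of 9.62 (OK+9MS) and a bottom one of 8.11 (EB-C5). Its level was 8.43 in Klf4S, 8.52 in Klf4L and 8.19 in lacZ. Single endothelium markers moved more than their list mean. Tek, an endothelial receptor, read 9.05 to 10.03 in the cassettes, 7.95 and 7.88 in Klf4 alone and 6.24 in lacZ. Its cassette mean was 3.33 above lacZ, while for Kdr, a VEGF receptor, the difference was -0.52. Of the 6 endothelium markers 3 had a higher and 3 a lower mean in the cassettes than in lacZ. Arrays of whole populations cannot tell a change in how many cells express a gene from a change in the amount of RNA per cell.

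By SD over the cassettes, the cadherins Dsg3 and Dsc2 varied most of the 5 genes, although Dsp had a wider range than Dsc2. Dsg3, the desmoglein of basal epidermis and the autoantigen of pemphigus vulgaris, read from 5.33 (OKMS) to 9.28 (OK+9MS) in the cassettes with a median of 6.99, against 7.45 (Klf4S), 7.98 (Klf4L) and 5.66 (lacZ). The 8 cassettes fell apart into 4 with high and 4 with low readings. OK+9MS (9.28), OSKM (9.12), MKOS (9.05) and OKN-HAMS (8.21) lay above both Klf4 arrays. WTSI (5.78), EB-C5 (5.61), STEMCCA (5.50) and OKMS (5.33) differed from lacZ by 0.33 or less, 3 of them below it. On these 4 arrays and in lacZ only 10.2% to 17.1% of all genes read lower, and at that end of the scale the values do not tell a dim transcript from background. A difference from such a level may be understated.

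Dsc2, the desmocollin that is most widely expressed among epithelia and is also found in heart muscle, read from 6.69 (STEMCCA) to 9.94 (OKN-HAMS) in the cassettes with a median of 9.07, against 8.67 (Klf4S), 8.64 (Klf4L) and 6.17 (lacZ). As in Dsp and Perp, lacZ was the lowest array of all 11, which holds for 8.77% of all genes. OKN-HAMS (9.94), OK+9MS (9.89), OSKM (9.79) and MKOS (9.78) were the highest and lay within 0.17 of each other. Below the Klf4 arrays followed EB-C5 (8.36), OKMS (7.94), WTSI (7.04) and STEMCCA (6.69), so that the cassettes spanned the Klf4 level on either side. Dsc2 and Dsg3 belong to 1 cluster of desmosomal cadherin genes on mouse chromosome 18, whose order in RefSeq (GRCm38.p6) is Dsc3, Dsc2, Dsc1, Dsg1c, Dsg1a, Dsg1b, Dsg4, Dsg3 and Dsg2.

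Pkp3, the plakophilin found in nearly all desmosomes of simple and stratified epithelia, varied least. It read from 7.36 (OKMS) to 8.24 (OSKM) in the cassettes with a median of 7.65, 7.59 in both Klf4S and Klf4L and 7.38 in lacZ. OSKM (8.24), OKN-HAMS (8.21) and OK+9MS (8.12) stood 0.46 or more above the remaining arrays. MKOS (7.64), which was among the highest arrays for the cadherins, lay with WTSI (7.66) close to the Klf4 arrays, and OKMS read just below lacZ.

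Dsp, which encodes desmoplakin and without which desmosomes do not hold keratin, read from 7.72 (STEMCCA) to 11.40 (MKOS) in the cassettes with a median of 10.47, against 9.78 (Klf4S), 9.80 (Klf4L) and 6.83 (lacZ). All 10 other constructs read above lacZ, and the values formed steps. MKOS (11.40), OKN-HAMS (11.34), OSKM (11.30) and OK+9MS (11.06) were highest. OKMS (9.89), EB-C5 (9.89) and WTSI (9.76) lay at the level of the Klf4 arrays, 1.16 or more below the highest 4. STEMCCA was 2.04 below the next construct and 0.89 above lacZ.

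Of the 5 genes, Dsp is the one whose start was searched for motifs and is shown here. Jup and Gjb5, which shared its 4 highest cassettes, are shown for comparison and were picked after their values were seen. The sequences are the 250 bases upstream of the annotated start in RefSeq (GRCm38.p6), 5′ to 3′ on the strand of the gene, and capitals mark CACCC or its reverse complement GGGTG, a core that Kruppel-like factors bind. Dsp lies at chr13:38151044-38151293 (plus strand), Jup at chr11:100397791-100398040 (minus strand) and Gjb5 at chr4:127358165-127358414 (minus strand).
Dsp: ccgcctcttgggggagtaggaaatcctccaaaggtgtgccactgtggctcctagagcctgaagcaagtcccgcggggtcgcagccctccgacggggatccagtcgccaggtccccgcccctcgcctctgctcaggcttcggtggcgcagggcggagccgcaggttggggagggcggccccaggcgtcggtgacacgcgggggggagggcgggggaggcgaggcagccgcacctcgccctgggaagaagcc
Jup: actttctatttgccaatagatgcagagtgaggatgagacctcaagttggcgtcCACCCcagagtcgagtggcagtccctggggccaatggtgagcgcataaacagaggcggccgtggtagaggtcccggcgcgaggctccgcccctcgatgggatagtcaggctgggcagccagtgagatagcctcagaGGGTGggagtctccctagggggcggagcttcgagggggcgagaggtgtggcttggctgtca
Gjb5: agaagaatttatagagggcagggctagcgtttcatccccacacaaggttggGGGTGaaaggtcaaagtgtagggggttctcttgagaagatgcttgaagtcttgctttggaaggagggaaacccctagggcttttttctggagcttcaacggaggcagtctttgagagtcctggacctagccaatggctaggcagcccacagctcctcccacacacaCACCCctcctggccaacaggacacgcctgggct
The Dsp stretch held no CACCC on either strand, while Jup and Gjb5 held 2 matches each. A match was found in 52.0% of the 32851 promoters of this length. None of the 3 held CACGTG, which Myc binds, TGAGTCA of AP-1 or ATGCAAA, a part of the Oct4 octamer, found in 6.02%, 4.46% and 4.12% of promoters on either strand. The same stretch of Gja1 (not shown), whose levels are given with the connexins, held 1 TGAGTCA and none of the other 3 motifs. A match or its lack describes these letters and not binding. Only these 4 motifs were searched for, so other sites that the same factors may bind were not looked at. The G and C content of the Dsp stretch was 72.4%.

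Perp read from 10.34 (STEMCCA) to 11.83 (OKN-HAMS) in the cassettes with a median of 11.28, against 10.72 (Klf4S), 10.83 (Klf4L) and 9.78 (lacZ). The lacZ array was again the lowest, but here the signal was already in the upper part of the array, with 80.6% of all genes reading lower in lacZ. After OKN-HAMS came OK+9MS (11.43), MKOS (11.36), WTSI (11.31), OSKM (11.25), OKMS (11.05) and EB-C5 (11.02), a series without a clear break. STEMCCA alone among the cassettes read below the Klf4 arrays.

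**Figure D1:**
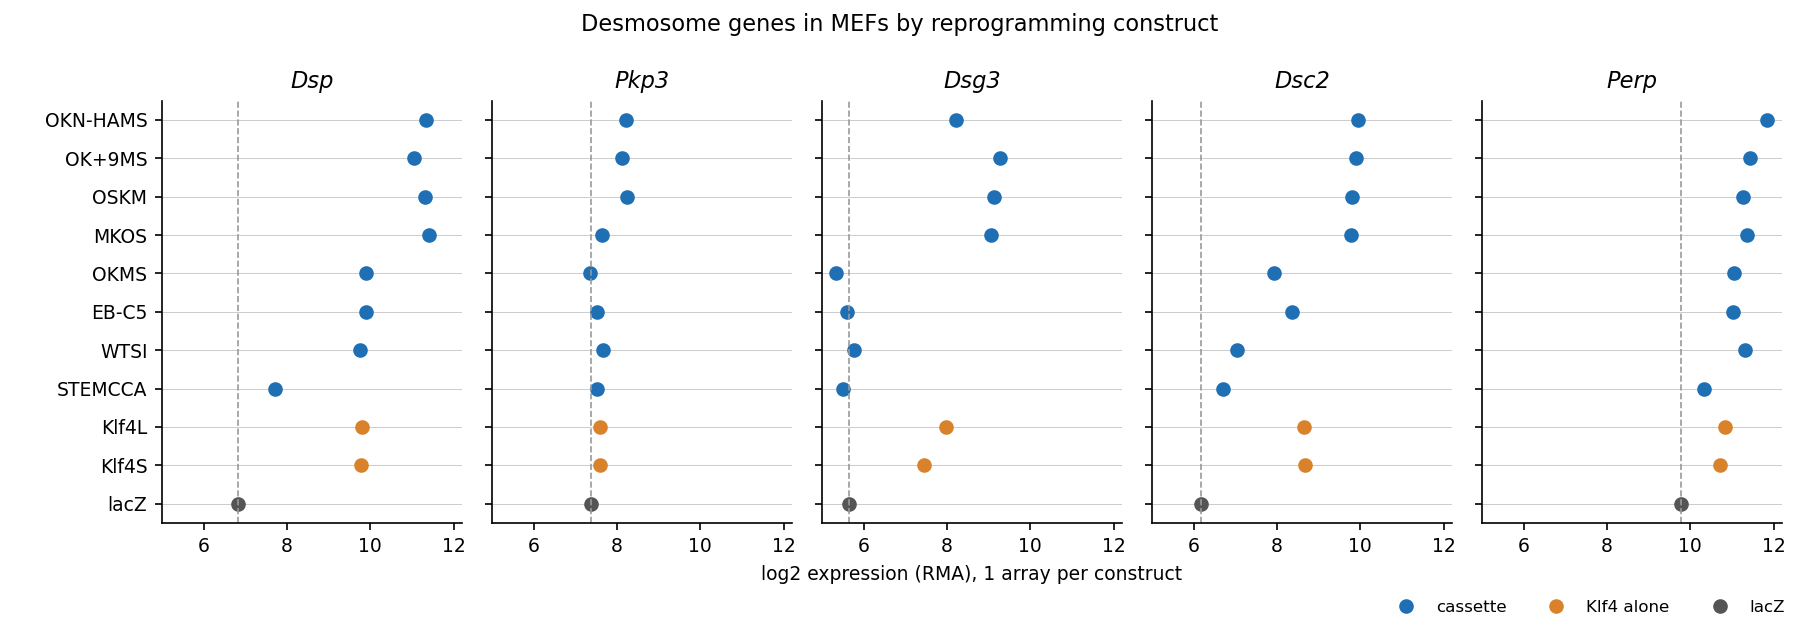
The plot of levels by construct gives log2 expression of the 5 desmosome genes (x axis, 1 panel per gene) for each of the 11 constructs (y axis), with 1 array per point, colour for the group and a dashed line at the lacZ level. Dsg3 in OKN-HAMS, OK+9MS, OSKM and MKOS lies between 8.21 and 9.28, while the other 4 cassettes lie between 5.33 and 5.78, around the lacZ value of 5.66.

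Across the 5 genes OSKM, OK+9MS, MKOS and OKN-HAMS were the 4 highest cassettes for Dsg3, Dsc2 and Dsp, which is 3 of 5 genes, against 5.19% of all genes. These 4 were picked out after their values were seen, and no mean or test was taken over them. The same 4 also had the highest means of the simple epithelium markers, up to 10.91, while the other cassettes reached 9.11 at most, a list that shares Krt8, Krt18 and Esrp1 with others here. So it was for the keratinocyte markers, with 7.35 to 7.68 against 6.56 to 6.69, and by smaller margins for the cardiac and macrophage lists. Among the keratinocyte markers the range over the cassettes was 5.72 for Krt14, 1.73 for Ivl and 0.994 or less for the others. For the macrophage markers this range was 1.51 for Cd68 and 0.494 or less for the rest. For the cardiac markers it was 2.28 for Myl7, 1.54 for Tnnt2 and 0.477 or less for the rest. Krt14, Krt5 and Trp63 are also listed with the keratins or regulators below. The part of cell content in the order of the cassettes was not tested. The spread over the 8 cassettes was above that of most genes in each of the 5, least so in Pkp3. Its SD was 1.83 for Dsg3, 1.35 for Dsc2, 1.26 for Dsp, 0.43 for Perp and 0.35 for Pkp3, larger than the SD of 99.8%, 99.5%, 99.4%, 90.5% and 84.7% of all genes. The range over the cassettes reached 1 in 4 of the 5 genes, all but Pkp3, against 16.3% of all genes. With 1 array per construct the error of a single reading was not measured, so small gaps between neighbours in these orders cannot be ranked. Over all genes the difference between the Klf4S and Klf4L arrays had an SD of 0.126.

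Set against lacZ array by array, 4 of the 5 genes were higher by 1 or more in OSKM, OK+9MS, MKOS and OKN-HAMS, where 4%, 3.71%, 2.71% and 4.08% of all genes were. The exception on each of these arrays was Pkp3. In OKMS and EB-C5 the count was 3 (3.39% and 3.01% of all genes), in WTSI 2 (2.14%) and in STEMCCA 0 (1.45%). In Klf4S it was 3 (1.88%) and in Klf4L 4 (1.99%). None of the 5 genes was lower than lacZ by 1 or more on any of the 10 arrays. Among all genes that share was 2.71% in OSKM, 4.12% in OKMS, 2.33% in OK+9MS, 1.67% in MKOS, 1.27% in STEMCCA, 4.58% in EB-C5, 3.22% in WTSI, 5.04% in OKN-HAMS, 2.01% in Klf4S and 1.98% in Klf4L. All of these comparisons share the single lacZ array.

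**Figure D2:**
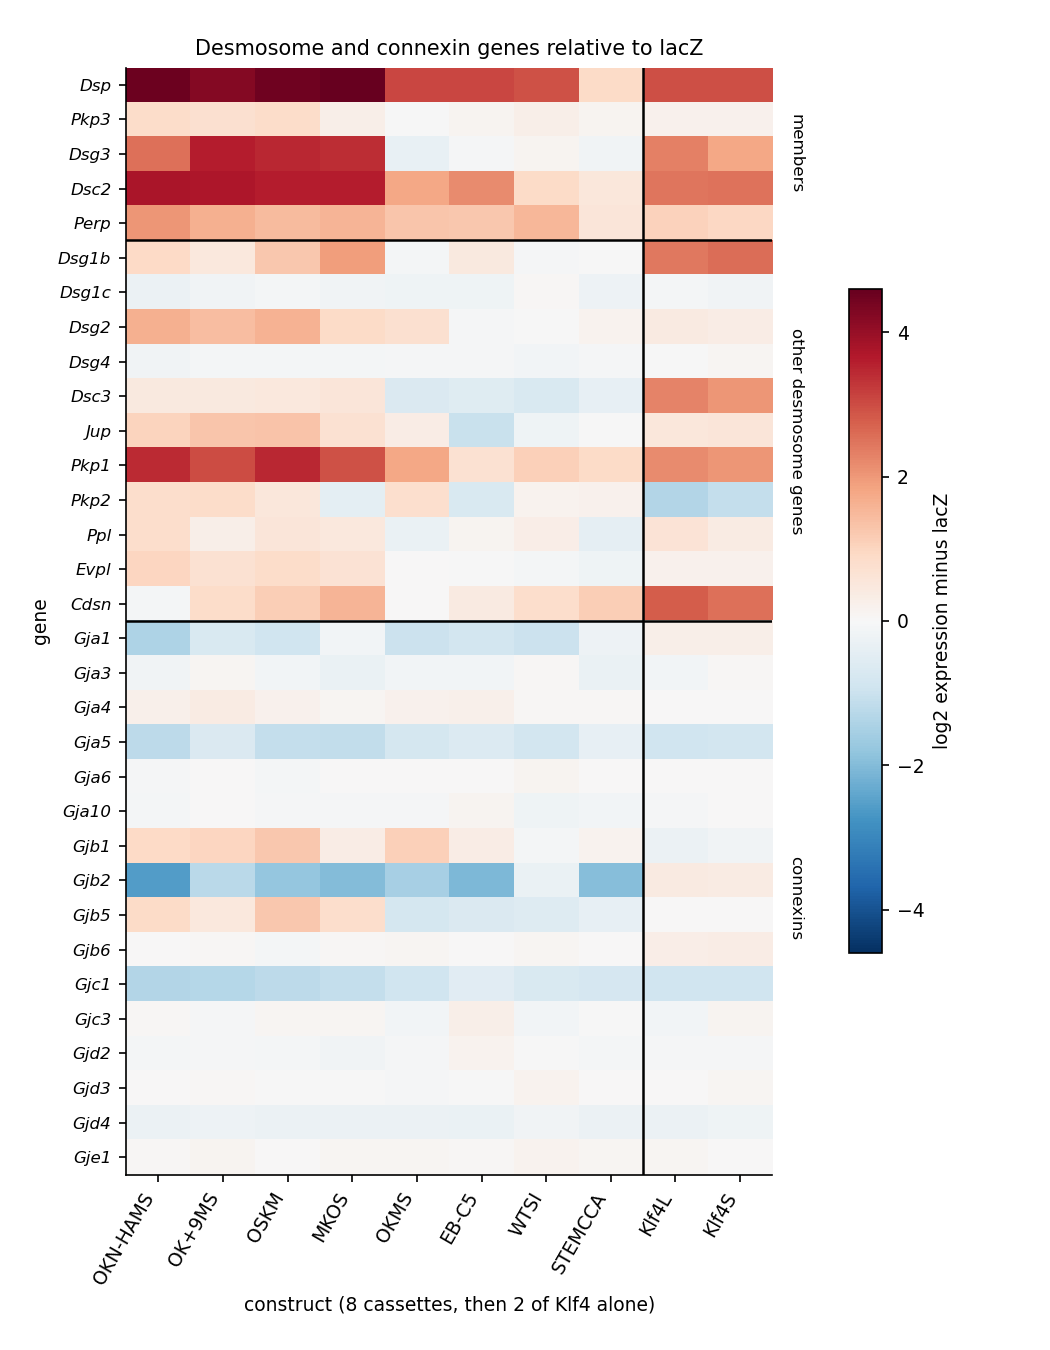
The heat map gives log2 expression minus lacZ (colour) for the 5 desmosome genes, 11 other desmosome genes and 16 connexins (rows) in the 8 cassettes and the 2 constructs of Klf4 alone (columns), 1 array each. Dsp, Dsc2, Perp and Pkp1 are above lacZ in all 10 columns, Dsg3 in 7, while most connexin rows stay near 0 and Gjb2 is lower than lacZ in all 8 cassettes.

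The group comparisons asked what the cassettes, and Klf4 without the other factors, changed relative to lacZ. The 5 genes had higher means than lacZ in the cassettes, by 3.46 for Dsp, 2.51 for Dsc2, 1.57 for Dsg3, 1.41 for Perp and 0.40 for Pkp3, a median of 1.57 against -0.013 over all genes. By limma over all genes none passed an adjusted p of 0.05, at which 0.456% of all genes were called higher and 1.59% lower. At an unadjusted p under 0.05 there were 2, Dsp and Perp, against 5.21% of all genes called higher. Dsp was higher by 3.46 ± 1.14 SE (n = 8 against n = 1, 95% interval 0.91 to 6.02, limma adjusted p = 0.177), and all 8 cassettes lay above lacZ. For Perp the difference was 1.41 ± 0.39 (interval 0.54 to 2.29, limma adjusted p = 0.114), again with all 8 above lacZ. Without STEMCCA, the lowest cassette for both, the differences were 3.83 for Dsp and 1.54 for Perp. Leaving out the lowest value had to raise them. Dsc2 (interval -0.23 to 5.25, limma adjusted p = 0.371) lay above lacZ in 8 of 8 cassettes, so that 3 of the 5 genes did not overlap with lacZ, against 13.3% of all genes. Dsg3 (interval -2.14 to 5.29, limma adjusted p = 0.766) was above lacZ in 5 of 8 cassettes and Pkp3 (interval -0.32 to 1.12, limma adjusted p = 0.646) in 7 of 8. The lone lacZ array was assumed to vary as the other groups do, and values with it rest on 1 array.

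In Klf4 alone the same 5 genes read above lacZ on both arrays, as 38.7% of all genes did. The differences were 2.96 for Dsp (interval 0.0036 to 5.91), 2.48 for Dsc2 (-0.68 to 5.65), 2.06 for Dsg3 (-2.24 to 6.35), 0.99 for Perp (-0.02 to 2.01) and 0.21 for Pkp3 (-0.63 to 1.04), with a median of 2.06 against a value close to 0 over all genes. The fit pools the spread over the groups, so the cassettes largely set these intervals. Dsp had an SD of 1.26 over the 8 cassettes and 0.0084 between the 2 Klf4 arrays, and Dsc2 1.35 and 0.022. By limma 0 of 5 passed after adjustment, with adjusted p from 0.435 (Dsp) to 0.951 (Pkp3), and 1, Dsp, at an unadjusted p under 0.05. The background was 0.271% called higher after adjustment (0.476% lower) and 5.16% called higher before.

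The cassettes and Klf4 alone shared day and sort. Between them the 5 genes differed by 0.51 (Dsp, interval -1.40 to 2.41), 0.42 (Perp, -0.23 to 1.07), 0.19 (Pkp3, -0.35 to 0.73), 0.02 (Dsc2, -2.02 to 2.06) and -0.48 (Dsg3, -3.25 to 2.29), with a median of 0.19 against -0.017 over all genes. By limma 0 of 5 passed, with adjusted p from 0.387 (Perp) to 0.992 (Dsc2), and 0 at an unadjusted p under 0.05, where 14.5% and 30.6% of all genes did. In each of the 5 genes both Klf4 readings fell within the range of the cassettes. The sign for Dsc2 turned when any of OSKM, OK+9MS, MKOS or OKN-HAMS was left out. The intervals allow differences of 2-fold or more either way for Dsp, Dsc2 and Dsg3.

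**Figure D3:**
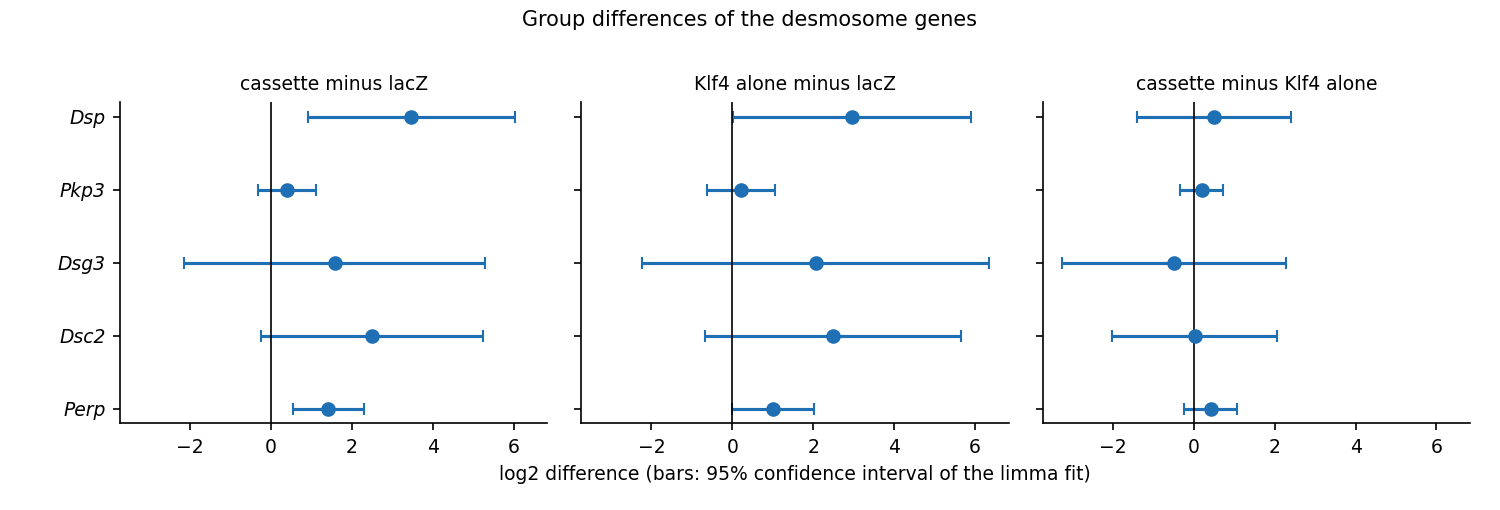
The plot of group differences gives the log2 difference between group means of the 5 desmosome genes in the 3 comparisons (1 panel each), with bars for the 95% confidence interval of the limma fit over 11 arrays. Dsp and Perp have intervals above 0 for the cassettes minus lacZ, and all 5 intervals include 0 for the cassettes minus Klf4 alone.

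The +9 form of Klf4, which is 9 residues longer at its N-terminus, was set against its partner inside a cassette (OK+9MS against OKMS) and alone (Klf4L against Klf4S). In the cassette all 5 genes were higher with the extension, where 51.9% of all genes were. Dsg3 went from 5.33 to 9.28, a difference of 3.96 between the deposited values. For Dsc2 the step was 1.95 (7.94 to 9.89), for Dsp 1.16 (9.89 to 11.06), for Pkp3 0.77 (7.36 to 8.12) and for Perp 0.37 (11.05 to 11.43). The 3 genes with a difference of 1 or more compare with 2.3% of all genes, and none of the 5 was lower by 1 or more (0.878% of all genes). Dsg3 is the gene in which the low reading, in OKMS, was near the bottom of the array, so that this difference has no firm size.

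For Klf4 alone the differences were 0.52 in Dsg3, 0.11 in Perp, 0.012 in Dsp, -0.0012 in Pkp3 and -0.030 in Dsc2, above 0 in 3 of 5 genes against 41.2% of all genes. No gene of the 19938 was higher in Klf4L by 1 or more, and Dsg3 was exceeded by 30 genes. Fitted over the 4 arrays with context as a second term, which leaves 1 residual degree of freedom, limma called 0 of the 5 genes and 0 of all genes, with an adjusted p of 0.943 for each of the 5. At an unadjusted p under 0.05 it called 0 of the 5 and 1.1% of all genes. Fitted differences were 2.24 ± 0.98 SE for Dsg3, 0.96 ± 0.57 for Dsc2, 0.59 ± 0.34 for Dsp, 0.38 ± 0.23 for Pkp3 and 0.24 ± 0.11 for Perp. The residual spread behind these SEs is the disagreement between the 2 contexts, for Dsg3 3.96 against 0.52, and not a measured error of the arrays. Whether the step inside the cassette differs from that of Klf4 alone was not tested, since each rests on 1 array against 1.

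**Figure D4:**
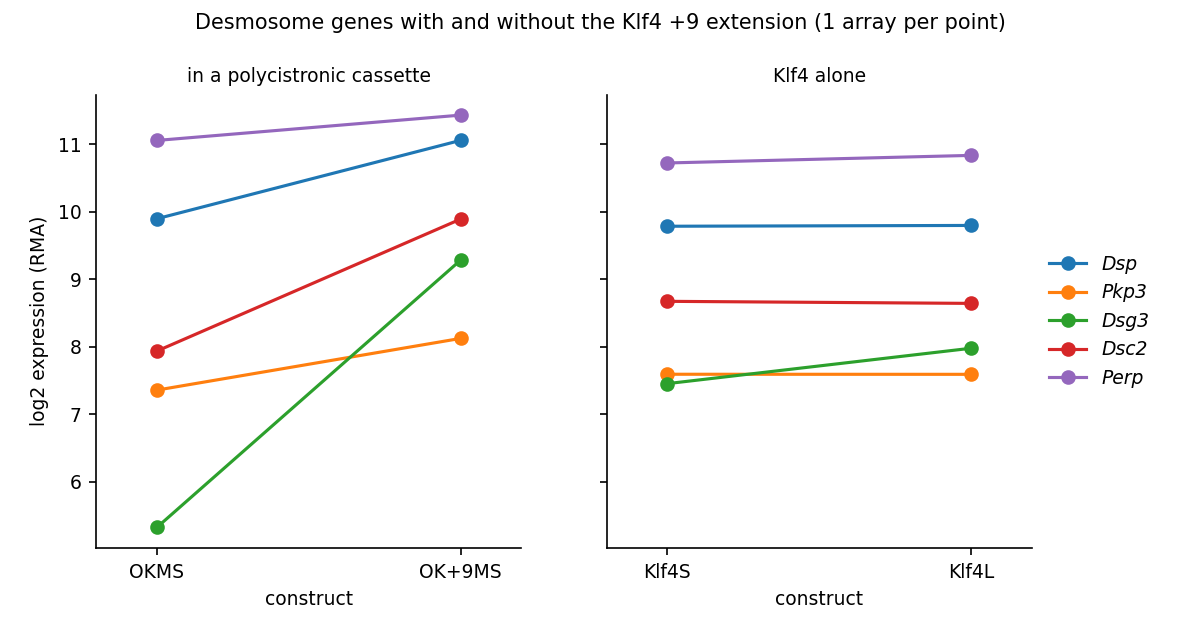
The plot of the Klf4 extension gives log2 expression (y axis) of the 5 desmosome genes in OKMS and OK+9MS (left panel) and in Klf4S and Klf4L (right panel), 1 array per point with lines joining a gene. Dsg3 climbs from 5.33 to 9.28 on the left and from 7.45 to 7.98 on the right, where the lines of Dsp, Dsc2 and Pkp3 are nearly flat.

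Of 13 further desmosome genes listed, 11 were measured. OSKM, OK+9MS, MKOS and OKN-HAMS, picked after values were seen, were the 4 highest cassettes in 6 of the 11, against 5.19% of all genes. The 6 were Dsg1b, Dsg2, Dsc3, Jup, Pkp1 and Evpl. Pkp1, the plakophilin of suprabasal epidermis, read from 7.75 (EB-C5) to 10.52 (OSKM) in the cassettes, 9.08 and 9.23 in Klf4 alone and 7.06 in lacZ. It was above lacZ on all 10 arrays. Jup, plakoglobin, which also serves adherens junctions, read 10.16 (EB-C5) to 12.51 (OSKM), 11.72 and 11.71 in Klf4 alone and 11.18 in lacZ. Dsg2, the desmoglein of simple epithelium and heart, read 6.35 (EB-C5) to 8.05 (OKN-HAMS), 6.73 and 6.79 in Klf4 alone and 6.39 in lacZ. The plakins envoplakin (Evpl, 7.26 to 8.45 in the cassettes, 7.46 in lacZ) and periplakin (Ppl, 7.06 to 8.30, 7.48 in lacZ), which join desmosomes to the cornified envelope, varied less. Dsg4 and Dsg1c stayed at or below 5.88 and 5.53 on every array.

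Against lacZ, limma called 0 of the 11 in the cassettes (0 at an unadjusted p under 0.05; background 2.05% and 15.5% in either direction) and 0 in Klf4 alone (3 unadjusted; 0.747% and 11.5%). Medians were 0.36 and 0.50. Between the cassettes and Klf4 alone 4 of the 11 passed, 3 lower and 1 higher, where 8.12% and 6.35% of all genes were called, with a median of -0.10. Dsc3, the desmocollin of basal and lower spinous epidermis, read 5.72 to 6.95 in the cassettes, 8.44 and 8.68 in Klf4 alone and 6.41 in lacZ, and was lower in the cassettes by 2.20 on the log2 scale (SE 0.39, n = 8 against n = 2, limma adjusted p = 0.00980). Cdsn, corneodesmosin of the outer epidermis, read 8.07 to 9.71 in the cassettes, 10.70 and 10.96 in Klf4 alone and 8.16 in lacZ (difference -1.94 ± 0.39, limma adjusted p = 0.0156). Dsg1b, a desmoglein of differentiating epidermis, read 6.84 to 8.86 in the cassettes, 9.50 and 9.35 in Klf4 alone and 6.94 in lacZ (-1.88 ± 0.48, limma adjusted p = 0.0329), with the reservation that near-identical Dsg1 copies may share its signal. In these 3 genes no cassette reached either Klf4 array, as in 17.8% of all genes. Pkp2, the plakophilin of heart and simple epithelia, went the other way, with 8.29 to 9.82 in the cassettes, 7.89 and 7.64 in Klf4 alone and 8.98 in lacZ (1.49 ± 0.40, limma adjusted p = 0.0375). The 4 calls did not hold without Klf4S or without Klf4L, where 1 Klf4 array is left and few genes of any kind were called. Such a fit cannot decide whether they would hold with more arrays. Without OK+9MS 2 of the 11 passed, as Dsg1b (limma adjusted p = 0.0534) and Pkp2 (0.0550) missed the threshold. Pkp2 missed it also without each of OSKM, OKMS, WTSI and OKN-HAMS in turn.

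Among the connexins 16 of 20 listed were measured, and 1 of them, Gjb5, a connexin of skin and placenta, had OSKM, OK+9MS, MKOS and OKN-HAMS as its 4 highest cassettes. A count of 1 in 16 is near the share of all genes, 5.19%. Gjb5 read 9.26, 8.48, 8.83 and 8.89 in these 4, 7.19 (OKMS) to 7.63 (STEMCCA) in the other cassettes and 8.01 in Klf4S, Klf4L and lacZ alike. Klf4S and Klf4L held the identical value, as they did for 431 of the 19938 genes, so an equal reading need not mean an equal level. The cause was not tested. The difference between OK+9MS and OKMS was 1.29 for Gjb5, and no other connexin reached 1. Gjb1, a connexin of liver and myelin, read 6.71 (WTSI) to 8.02 (OSKM) in the cassettes, 6.62 and 6.53 in Klf4 alone and 6.80 in lacZ, with OKMS (7.91) as the second highest, and the difference of the cassettes from Klf4 alone was 0.84 (limma adjusted p = 0.119).

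Compared with Klf4 alone, the cassettes had less Gja1 and Gjb2. Gja1 read 10.87 (OKN-HAMS) to 12.17 (MKOS) in the cassettes with a median of 11.42, 12.57 in both Klf4 arrays and 12.30 in lacZ. All cassettes were below both Klf4 arrays, as in 17.8% of all genes, and below lacZ, as in 20.8% of all genes. The difference from Klf4 alone was -1.05 ± 0.29 SE (limma adjusted p = 0.0406). Gjb2, a connexin of skin and the inner ear, read 6.36 (OKN-HAMS) to 8.62 (WTSI) in the cassettes with a median of 7.06, 9.33 and 9.37 in Klf4 alone and 8.94 in lacZ (-2.09 ± 0.46, limma adjusted p = 0.0198). The remaining call, Gjb6, was a difference of -0.27 between low readings of 5.72 and 6.00. These 3 of 16 were all lower, against 8.12% of all genes, and the median over the connexins was -0.011. Against lacZ limma called 0 of 16 in either group, with 4 at an unadjusted p under 0.05 in each. The shares of all genes called were 2.05% and, unadjusted, 15.5% for the cassettes, and 0.747% and 11.5% for Klf4 alone. The calls between the cassettes and Klf4 alone did not hold without Klf4S or without Klf4L, where few genes of any kind were called. With 1 Klf4 array left, such a fit cannot decide whether they would hold with more arrays. Gja1 also missed the threshold without each of OSKM, OKMS, OK+9MS, EB-C5 and WTSI in turn (limma adjusted p 0.0603 to 0.0638). The mean of the fibroblast markers was higher in Klf4 alone than in every cassette, all 12 of them had a lower mean in the cassettes, and 2 of the 12 were called lower, against 8.12% of all genes. In lacZ, where Gja1 read 12.30, the marker mean was 10.75, within the 10.65 to 11.61 of the cassettes. The part of the fibroblast content in the Gja1 difference was not tested.

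**Figure D5:**
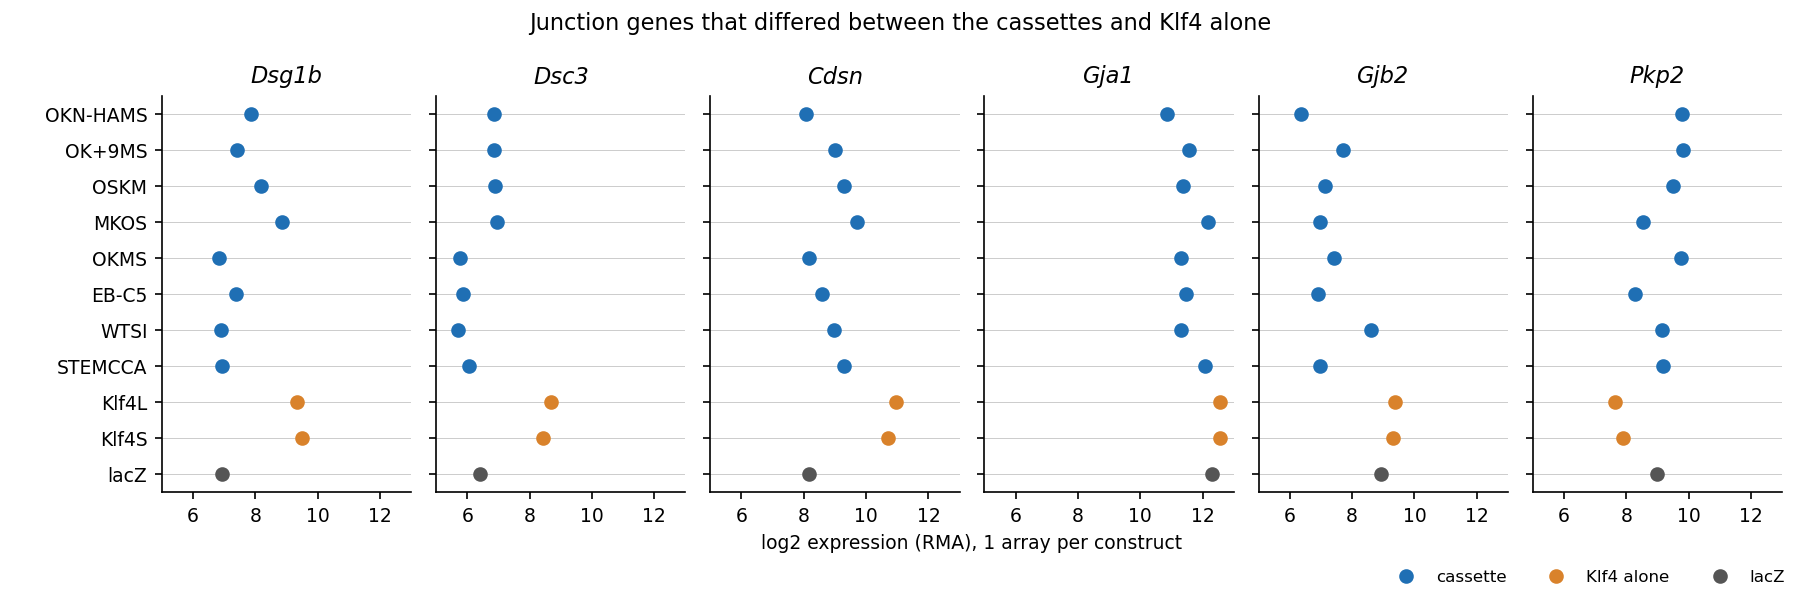
The plot of junction genes that differed between the cassettes and Klf4 alone gives log2 expression (x axis) of 6 called genes for each construct (y axis), 1 array per point and colour for the group. The Klf4 points of Dsg1b, Dsc3, Cdsn, Gja1 and Gjb2 lie above all 8 cassettes, and those of Pkp2 lie below.

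Keratins are the filaments that desmoplakin binds. Krt8, of simple epithelium, read 9.18 (STEMCCA) to 13.43 (OK+9MS) in the cassettes, 10.97 and 11.23 in Klf4 alone and 8.02 in lacZ. Its usual partner Krt18 read 7.23 (EB-C5) to 9.65 (OK+9MS), 8.35 and 8.39, and 7.92. Krt14, of basal epidermis, read 6.76 (STEMCCA) to 12.48 (OSKM), 10.84 and 11.37, and 7.01. In these 3 of the 4 listed keratins the 4 highest cassettes were again OSKM, OK+9MS, MKOS and OKN-HAMS, against 5.19% of all genes. Krt5, the usual partner of Krt14, stayed between 6.70 and 7.41 on all arrays. By limma 0 of the 4 keratins passed in any of the 3 comparisons.

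Of 7 regulators of epithelial genes, Trp63 (p63), a known activator of Perp, stayed between 6.88 and 7.17 on all 11 arrays. Grhl3, a grainyhead factor of the epidermis, read 7.55 (WTSI) to 9.78 (OKN-HAMS) in the cassettes, 9.53 and 9.46 in Klf4 alone and 6.88 in lacZ. Ovol1, a zinc finger factor of epithelial cells, read 6.40 (STEMCCA) to 9.11 (OSKM), 7.01 and 7.07, and 6.54. Esrp1, a splicing factor of epithelial cells, read 6.10 (EB-C5) to 10.62 (OKN-HAMS), 6.48 and 6.57, and 5.98, so OKMS with 9.37 was well above lacZ there while its Dsg3 was not. Grhl2 read 5.84 (EB-C5) to 7.38 (OKN-HAMS) against 6.15 in lacZ. Elf3 was the 1 of the 7 that passed, higher in the cassettes than in Klf4 alone by 0.66 ± 0.19 SE (limma adjusted p = 0.0489). Of all genes 14.5% were called in this comparison and 6.35% were called higher, so 1 of 7 is near the background. Elf3 missed the threshold without each of OSKM, OKMS, OK+9MS, MKOS, EB-C5, Klf4S and Klf4L in turn, with limma adjusted p from 0.0544 (without MKOS) to 0.263 (without Klf4S).

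The genes whose levels ran most like each of the 5 over the 11 arrays were taken from 5048 genes with a range of 1 or more, by Pearson's r, as a description without a test. For Dsp these were Vtcn1 (r = 0.968), Tgm2 (0.962), Epb41l4b (0.955), Homer2 (0.940) and Mal (0.933). For Dsg3 they were Cwh43 (0.980), the kallikrein protease Klk14 (0.978), the laminin chain Lamb3 (0.977), Serpinb5 (0.977) and Nccrp1 (0.974). Klk14 shows the pattern, with 6.59 to 11.43 in the cassettes, 9.87 and 10.21 in Klf4 alone and 6.66 in lacZ. For Dsc2 they were the inositol trisphosphate receptor Itpr3 (0.959), the water channel Aqp3 (0.950), Mal (0.945), Kiss1r (0.943) and Ly6g6c (0.937). For Pkp3 they were Galnt6 (0.978), Sox8 (0.972), Slc15a1 (0.960), Tmem45b (0.954) and Gdpd3 (0.954). For Perp they were Tmc6 (0.936), Dsp (0.932), Mfsd6 (0.927), Madd (0.925) and Plekha1 (0.925), so that Dsp appeared in the list of another of the 5 genes. Pkp3, with a range of 0.88, was not among the genes searched. All arrays share 1 normalization, and 3 of the 5 genes have lacZ as their lowest array.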

How the data were processed

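Total RNA of 11 MEF populations was measured on 1 Affymetrix mouse gene array each. The deposited table is in log2 units, from RMA run by the authors per the submitters' processing notes (no version is stated). RMA corrects background, normalizes arrays against each other and summarizes each probe set. RMA can understate large differences and gives no detection calls. Of 28856 probe sets, a platform annotation pairs 21789 with 1 symbol, 1621 with several and 5446 with none, and the first kind was used. The probe set with the highest mean stood for each of 19938 genes. Arrays were grouped by the transgene label. Groups were compared with limma 3.58.1 (lmFit, eBayes; R 4.3.3) over all 11 arrays, leaving 8 residual degrees of freedom. P-values were adjusted over all genes (Benjamini-Hochberg), and genes under 0.05 were called. The number of arrays limits the precision. The fit was tested on simulated data. Alternatives were a fit to only the 2 groups compared, genes above the median level, quantile normalization, the mean of all probe sets, a mean-variance trend and leaving out each construct.

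The 5 genes and all lists were chosen with earlier results of these data known. Named list genes had passed a test or ranged over 1 or more between cassettes, up to 8 per list by range. Evpl, Dsg1c, Dsg4, Krt5, Trp63 and the single markers named were picked after their values were seen. The 5 most alike genes were taken without olfactory or vomeronasal receptors, small RNAs, clone names and predicted genes. Promoters came from RefSeq (GRCm38.p6).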

Additional observations from a re-analysis of the deposited data

Results flagged for a closer look

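Dsp in STEMCCA, at 7.72, lay apart from the other 7 cassettes, with a gap to the next that took 0.555 of the range of the 8, above the 95% limit of 0.526 for 8 values. Chance alone gives such a gap in about 1 in 20 groups, and 5 genes were looked at. Dsc2 and Pkp3 had opposite signs in the 2 contexts of the Klf4 extension. The values were 1.95 and 0.77 for OK+9MS minus OKMS against -0.0305 and -0.0012 for Klf4L minus Klf4S, and the difference was not tested. Over all genes Klf4L minus Klf4S had an SD of 0.126, so the sign of such small values cannot be read as a fall.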

How the results depend on the processing

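In the comparisons with lacZ the 5 desmosome genes kept the sign of their difference under every alternative that was run. Several alternatives could not change it. The fit to only the 2 groups compared, the genes above the median level and the mean-variance trend keep the same group means. Leaving out a cassette does not alter the difference of Klf4 alone from lacZ, and the lacZ array was never left out. Without STEMCCA, the lowest cassette for Dsp and Perp, their differences between the cassettes and lacZ rose to 3.83 and 1.54, as they had to. Dsc2, cassettes minus Klf4 alone, turned to -0.14 without OSKM, -0.15 without OK+9MS, -0.13 without MKOS and -0.16 without OKN-HAMS, and ran up to 0.31 without STEMCCA. The cause was not tested. For the Klf4 extension within Klf4 alone, Pkp3 (-0.0012) and Dsc2 (-0.0305) had the other sign than the fit. Both values lie within the SD of 0.126 of that difference over all genes. Counts of all called genes without 1 construct in turn ran from 184 to 734 for the cassettes against lacZ, from 36 to 268 for Klf4 alone against lacZ and from 92 to 3968 between the cassettes and Klf4 alone, where 2885 were called and the counts without Klf4S (104) and Klf4L (92) were the lowest. They were 184 and 0 when only the 2 groups compared were fitted, which leaves fewer arrays, and 186 and 77 among genes above the median level, for the cassettes and Klf4 alone against lacZ, where 409 and 149 were called in the full fit. Dsg3 lies below the median level and has no value there. The Dsp promoter held no match to any of the 4 motifs with 100 bases upstream either. Low readings cannot be told from background here, which bears on Dsg3 most.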
